A study of Homo sapiens with 6 samples.

Results

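The chromosome 19 zinc finger genes described here are the genes whose symbol is ZNF followed by a number, with at most 1 letter from A to C after it, and whose position lies on chromosome 19 (GRCh38). This rule used names and positions only and found 247 of the 50868 genes measured. RNA-Seq had been performed on HCT116, a human colorectal cancer cell line, after transfection with pcYY2, a vector that overexpresses the transcription factor YY2, or with pcCon, the empty vector pcDNA3.1(+). Both groups had 3 samples, the backbone of pcYY2 is not given in the sources used here, and the methods say that cells for overexpression experiments were collected the day after transfection. Transfection is transient, so each sample is a mixture of cells that did and did not take up the plasmid, and the share of transfected cells was not analysed here. The sources used here do not say whether the 3 samples of a group came from separate cultures, so the p values measure the spread between these samples, which may be technical.

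Most ZNF genes encode C2H2 zinc finger proteins, in which each finger is a short fold held by a zinc ion, and a row of fingers reads a stretch of DNA. In the largest subfamily a KRAB domain at the amino terminus binds TRIM28 (KAP1), which brings in the histone methyltransferase SETDB1 and other silencing factors, and many of these proteins are known for holding retrotransposons silent. The genes expanded by duplication and stand in long clusters on chromosome 19. YY2 is itself a C2H2 zinc finger protein, a retroposed copy of YY1, and both are known to read a core with the letters CCAT. In a translation of the GENCODE 44 coding sequences, 243 of the 247 genes had a protein, with a median of 12 fingers and a range from 1 to 36. A stretch like the KRAB A box was found in 146 of them (60.1%), by a strict pattern that misses some known KRAB proteins such as ZNF304 and ZNF649. The other 4 genes are annotated as pseudogenes.

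The DNA around the start of these genes is shown first, since YY1 and YY2 are known to bind close to gene starts. The motif CGCCATNTT, searched on both strands from 250 bases before to 50 bases after the start, was present for 14 of the 213 members (6.57%) found in the RefSeq promoter table (GRCh38.p14), against 3.85% of all 27305 genes of that table. Some genes have several windows, and counted by window the match was present in 5.36% of 261 and in 3.19% of 35116. The shorter motif GCCATNTT, which lies within the longer one, was present for 14.6% of the members and 7.97% of all genes. Among genes with enough reads to be tested, 7 of 85 members (8.24%) and 9.13% of 8656 genes held the longer motif. The 7 tested members with the match are printed as windows of 29 bases, 5′ to 3′ on the gene's own strand, with the motif in capitals.
ZNF121: agcgcacaatCGCCATCTTttccggcgct
ZNF561: agcgcaccacCGCCATCTTttccggcgct
ZNF562: agtgtgccacCGCCATCTTtaccggctgt
ZNF614: caaagggcgcCGCCATCTTttttccacag
ZNF414: tgagaggtggAAAATGGCGctgacgtgag
ZNF507: tccccagcgcCGCCATTTTggagctccgg
ZNF264: tcgctgcggaCGCCATTTTcttctgcact
In ZNF414 the match is on the opposite strand and is read there as its reverse complement. ZNF121, ZNF561 and ZNF562 are neighbours on the minus strand, and their windows resemble each other, so their matches are not independent. The window of ZNF121 is chr19:9584519-9584547, that of ZNF561 is chr19:9621220-9621248, and that of ZNF562 is chr19:9675072-9675100. In ZNF121 the motif lies from 33 to 25 bases before the annotated start. A match is a description of the letters, and binding was not measured in these data.

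The windows of the members were rich in CG pairs, with a median of 20 in 300 bases, against 14 over all windows of the table. The 250 bases before the start are printed for ZNF121, the most highly expressed member that fell, and for ZNF581, the member that rose. The starts are those of RefSeq, which for ZNF121 lies 29 bases and for ZNF581 8.19 kb inside the locus of the deposited table, so that the stretch of ZNF581 is within its locus. The CG pairs are in capitals, and the places are chr19:9584505-9584754 on the minus strand and chr19:55643399-55643648 on the plus strand.
ZNF121: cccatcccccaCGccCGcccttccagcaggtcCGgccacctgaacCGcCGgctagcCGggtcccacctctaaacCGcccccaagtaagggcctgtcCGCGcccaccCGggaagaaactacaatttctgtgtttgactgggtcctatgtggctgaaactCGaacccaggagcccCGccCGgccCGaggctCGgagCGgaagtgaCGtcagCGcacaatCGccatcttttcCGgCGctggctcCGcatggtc
ZNF581: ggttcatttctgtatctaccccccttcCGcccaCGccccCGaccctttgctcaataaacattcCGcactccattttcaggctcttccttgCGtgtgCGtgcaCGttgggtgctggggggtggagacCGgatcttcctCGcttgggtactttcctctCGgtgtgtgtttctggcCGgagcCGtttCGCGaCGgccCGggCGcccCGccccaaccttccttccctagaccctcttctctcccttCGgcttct
Both stretches are dense in CG pairs, as is common for promoters of widely expressed genes.

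Between 15158360 and 29572882 reads were counted per sample. YY2, the overexpressed gene, had 6.06, 6.87 and 4.73 CPM (counts divided by the library size after TMM scaling) in the pcCon samples 1 to 3 and 31.9, 30.7 and 30.3 CPM in pcYY2, a log2 fold change of 2.39 (SE 0.137, edgeR adjusted p = 0.00107). The counts do not separate the transfected from the endogenous gene. Of the colorectal epithelial markers EPCAM, CDH1, KRT8, KRT18, KRT19, CDX2 and VIL1, all but VIL1 (0 to 2 reads) were well counted. Their summed level was 2070.1 to 2159 CPM in pcCon and 2758 to 3203 CPM in pcYY2, with the groups apart, mostly through KRT8 (871 to 920.5 against 1228 to 1626 CPM) and KRT19 (450.4 to 469 against 650.1 to 719 CPM). The leukocyte list (PTPRC, CD3E, CD14) had 98 reads in the pcYY2 sample 2 and 1 to 19 in the others. The fibroblast list (COL1A1, COL3A1, PDGFRB) had 25.4 to 28.6 CPM in pcCon and 28.6 to 35.6 in pcYY2, nearly all from COL1A1, and the endothelial list (PECAM1, VWF) had 5 to 48 reads. The part of these markers in the results below was not tested.

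The question put to the data was whether the zinc finger genes of chromosome 19 changed with YY2 differently from other genes of similar count. The zinc finger genes lay lower in pcYY2 than in pcCon, by a small amount and in many genes at once. Their summed level was 2777, 2841 and 2856 CPM in the pcCon samples 1 to 3 and 2524, 2478 and 2515 CPM in the pcYY2 samples. All 3 pcYY2 samples were below all 3 pcCon samples, with a mean of 2506 ± 24.7 CPM (SD, n = 3) against 2825 ± 42.2, a difference of -11.3%. In bulk RNA, fewer cells with a transcript and less of it per cell cannot be told apart. For a single value, 0.1 is the smallest p that a two-sided exact permutation test can reach with 3 samples in each group.

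Of the 247 genes, 94 had a mean FPKM of 1 or more and entered the edgeR quasi-likelihood fit over 12015 genes. A further 64 had a mean count of at least 10 but a lower FPKM, 38 had a mean count under 10, and 51 had no count in any sample. The share with a KRAB-like stretch was 55.3% of the tested members, 60.9% of the next class, 75% of the 36 members with few counts and a protein and 57.1% of the 49 without counts that have one. At the threshold, an adjusted p (Benjamini-Hochberg) no higher than 0.05, 9 of the 94 tested members fell (9.57%, with 4.85% of all tested genes called lower) and 1 rose (1.06%, with 4.52% of all tested genes called higher). At an unadjusted p under 0.05 these shares were 34.0% lower and 4.26% higher, against 14.5% and 14.4% of all tested genes. All 3 pcYY2 samples lay below all 3 pcCon samples in 37 members (39.4%, with 18.3% of all tested genes), and above them in 5 (5.32%, with 17.5%). The number of members lower was 0 to 5 when a sample was left out, namely 1, 0 and 1 without the pcCon sample 1, 2 and 3 and 2, 5 and 1 without the pcYY2 sample 1, 2 and 3. The share of members lower exceeded that of all tested genes in the fit without the pcYY2 sample 2 (5.32% against 2.27%) and in no other of these 6 fits. The member that was higher was lost in each of those fits. Without the pcCon sample 2, where edgeR called none, 27 of the 94 members were lower and 4 higher at an unadjusted p under 0.05. The share of all genes at that cut was not computed for this fit, so these counts have no background beside them.

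The log2 fold changes of the members had a median of -0.20, with quartiles at -0.36 and -0.02 and a range from -1.18 to 0.62. In 72 of the 94 members (76.6%) the value was under 0, against 49.7% of all tested genes, whose median was 0.00. Among other genes of similar mean count (141 to 727 reads, the span from the 10th to the 90th percentile of the members), 4447 were tested, their median was -0.01 and 51.9% were under 0. The 74 members within the same span had a median of -0.21 and 78.4% were under 0. Only 11 members were under -0.5 and 28 lay between -0.5 and -0.25, so that the shift consists mainly of small values. Across the 94 members the median SE was 0.125, against 0.0936 over all tested genes, and their median count was 328 against 718. The 74 members in the span of similar count had the same median SE, against 0.11 for the other genes there.

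**Figure D1:**
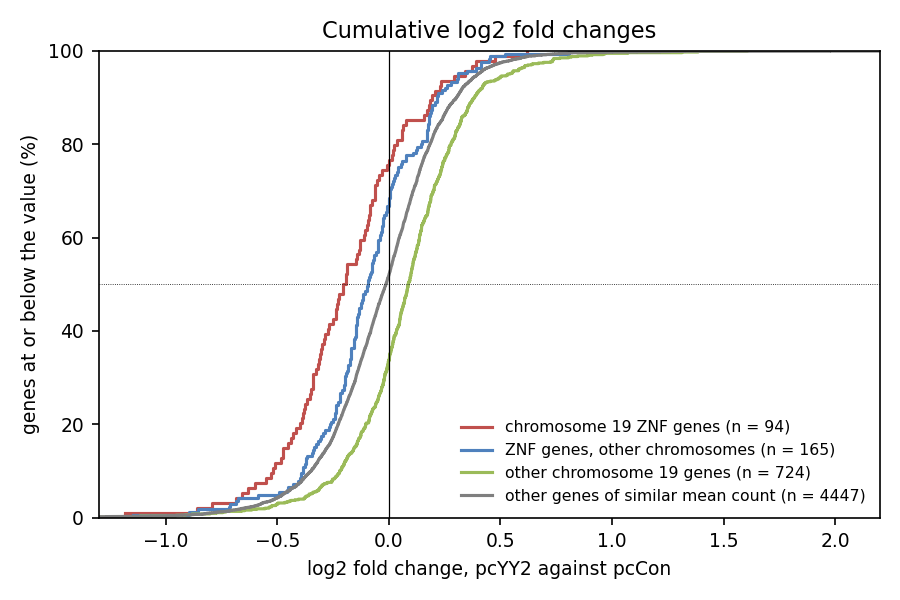
Share of genes (y axis, %) at or below each log2 fold change of pcYY2 against pcCon (x axis) for the tested chromosome 19 ZNF genes, ZNF genes of other chromosomes, other chromosome 19 genes and other genes of similar mean count. The curve of the chromosome 19 ZNF genes lies farthest left, with a median of -0.20, and that of the other chromosome 19 genes farthest right, with a median of 0.09.

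By sample, the median deviation of the members from the pcCon mean was -0.01, 0.02 and 0.01 in the pcCon samples 1 to 3 and -0.19, -0.17 and -0.22 in the pcYY2 samples, on the log2 scale. The other genes of similar count had medians from -0.02 to 0.00 in all 6 samples. The lower level of the members was present in each of the 3 pcYY2 samples, in which 64, 67 and 71 of the 94 members were under their pcCon mean. Split by the quartiles of the members' mean count, from low to high, the medians of the members were -0.14, -0.34, -0.22 and -0.10, and those of the other genes in the same spans were -0.02, -0.03, -0.01 and 0.01. The 165 tested ZNF genes on other chromosomes had a median of -0.10 with 67.9% under 0. Of these 165, 13 were called lower (7.88%, with 4.85% of all tested genes) and 1 higher (0.606%, with 4.52%). All pcYY2 samples lay below all pcCon samples in 27.3% of them (18.3% of all tested genes) and above in 5.45% (17.5%). The 724 other tested genes of chromosome 19 had a median of 0.09 with 33.6% under 0.

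**Figure D2:**
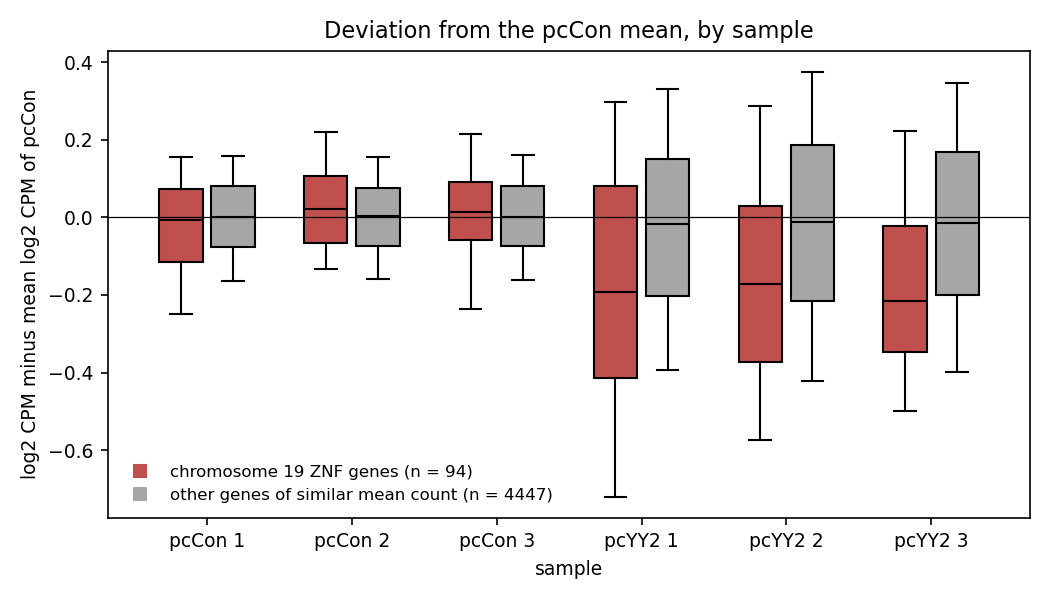
Deviation of each gene from its mean log2 CPM in pcCon (y axis, log2 units) in each sample (x axis), for the 94 tested chromosome 19 ZNF genes (red) and 4447 other genes of similar mean count (grey). Boxes give quartiles, lines in them the medians and whiskers the 10th and 90th percentiles, and the red medians of the pcYY2 samples lie from -0.22 to -0.17 while the grey ones stay near 0.

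Of the 42 tested members in which no KRAB-like stretch was found 2 fell (4.76%), among them the known KRAB repressor ZNF304. Of the 52 in which it was found 7 fell (13.5%). Over all tested genes 4.85% were called lower. All called members were picked by p, and small p values favour groups that are apart. The 7 with the stretch are described first. ZNF28 (chr19:52797409-52857600, minus strand, 15 fingers) had the largest difference, with 26.3, 24.6 and 17.9 CPM in pcCon and 7.77, 11.6 and 10.8 in pcYY2. Its groups were well apart, and the log2 fold change was -1.18 (SE 0.197, edgeR adjusted p = 0.0188). It overlaps ZNF468 on the same strand, and reads of the overlap could have been counted for either. ZNF431 (chr19:21142024-21196053, plus strand, 12 fingers), a KRAB repressor known for a mouse relative that acts on Patched1, had 35.7, 49.4 and 51.9 CPM in pcCon and 23.4, 21.5 and 30.7 in pcYY2. The highest pcYY2 value stayed below the lowest pcCon value, and the log2 fold change was -0.86 (SE 0.184, edgeR adjusted p = 0.0356). ZNF699 (chr19:9294275-9309838, minus strand, 14 fingers), a relative of the Drosophila gene hangover, had 7.59, 7.19 and 8.35 CPM in pcCon against 4.38, 4.99 and 5.51 in pcYY2. Its log2 fold change was -0.63 (SE 0.134, edgeR adjusted p = 0.035), with pcYY2 below pcCon in every sample.

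ZNF805 (chr19:57240685-57255135, plus strand, 13 fingers) had 8.47, 9.26 and 9.27 CPM in pcCon and 6.34, 5.53 and 6.61 in pcYY2, a difference in means of -31.8% (edgeR adjusted p = 0.0362). ZNF607 (chr19:37696363-37719790, minus strand, 18 fingers) went from 15.6, 14.5 and 16.8 CPM to 9.47, 11.1 and 11.9, a difference of -30.6% (edgeR adjusted p = 0.0397). ZNF100 (chr19:21722766-21767628, minus strand, 11 fingers) had 26.6, 34.6 and 28.5 CPM in pcCon and 22.3, 18.9 and 22 in pcYY2, a difference of -29.8% (edgeR adjusted p = 0.0481). In none of these genes did the groups overlap, which the choice by small p favours. ZNF525 (chr19:53330675-53392217, plus strand, 8 fingers) had 17.9, 15.9 and 19.4 CPM in pcCon and 13.7, 12.7 and 12.5 in pcYY2, a difference of -26.9% (edgeR adjusted p = 0.0426), and it shares a stretch of its strand with ZNF765. ZNF100 and ZNF525 were the calls lost when genes were filtered by a mean count of at least 10 in place of FPKM, with adjusted p values of 0.0542 and 0.0513.

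The remaining genes that fell were ZNF304 and ZNF121. ZNF304 (chr19:57351307-57359898, plus strand, 15 fingers) is known as a KRAB repressor that recruits TRIM28, SETDB1 and the DNA methyltransferase DNMT1. It had 21, 22.1 and 21.6 CPM in pcCon and 14.2, 17.4 and 14.7 in pcYY2, a log2 fold change of -0.48 (SE 0.10, edgeR adjusted p = 0.0333). ZNF121 (chr19:9560353-9584533, minus strand, 9 fingers) was the second most abundant member per length and carries the promoter match printed above. Its values were 221, 227 and 223 CPM in pcCon and 190, 174 and 186 in pcYY2, a log2 fold change of -0.29 (SE 0.0483, edgeR adjusted p = 0.019). This was the smallest change among the genes called lower and also the one with the smallest SE, and it overlaps no other annotated gene.

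ZNF581 (chr19:55635459-55645622, plus strand), a short protein of 197 residues with 4 fingers and no KRAB-like stretch, was the only tested member called higher. It had 21.3, 20 and 18.5 CPM in pcCon and 24.6, 26.4 and 27.5 in pcYY2. The groups did not overlap, and the log2 fold change was 0.39 (SE 0.0869, edgeR adjusted p = 0.039). It overlaps ZNF580 and CCDC106 on its own strand, and how reads of shared stretches were assigned is not given in the sources used here. Its neighbours ZNF580 (log2 fold change 0.34, edgeR adjusted p = 0.172) and ZNF784 (0.48, edgeR adjusted p = 0.117) were picked after their values were seen. Both had pcYY2 above pcCon in every sample, as had 17.5% of all tested genes, and both missed the threshold.

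ZNF8, ZNF283 and ZNF649 missed the threshold narrowly. ZNF8 had 36.3, 39.4 and 38.6 CPM in pcCon and 30.2, 33.0 and 30.6 in pcYY2 (log2 fold change -0.29, edgeR adjusted p = 0.0502). ZNF283 had 15.6, 17.2 and 17.0 CPM against 12.7, 11.8 and 13.6 (-0.39, edgeR adjusted p = 0.0512). ZNF649, a KRAB protein known to repress reporters driven by the serum response element, had 13.4, 12 and 12.7 CPM against 8.56, 10.2 and 9.17 (-0.44, edgeR adjusted p = 0.0515). The number of calls thus depends on small differences in p. The groups did not overlap in any of these genes, but the genes were picked by p, and small p values favour groups that are apart. Over all tested genes, pcYY2 lay wholly below pcCon in 18.3% and wholly above it in 17.5%. Their calls were made in 4, 2 and 2 of 16 alternative fits.

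Many members were expressed at low levels, and the FPKM filter left 64 countable members out. In a fit over the 15821 genes with a mean count of at least 10, 7 of 158 members were lower (4.43%, with 3.46% of all genes) and 1 was higher (0.633%, with 3.75% of all genes). The value was under 0 in 117 of them (74.1%, against 50.03% of all genes), and their median was -0.20. Of the 64 members under the FPKM filter none passed the threshold of edgeR, and 8 were lower and 1 higher at an unadjusted p under 0.05. At that cut 14.5% of all genes tested in the main fit were lower and 14.4% higher, but that fit left these 64 members out. The share of all genes in the fit by count was not computed, so no excess can be read from the 8. The smallest p values among them belonged to ZNF181, ZNF615, ZNF302, ZNF160 and ZNF837. ZNF181 had 10.3, 7.52 and 7.10 CPM in pcCon and 4.57, 5.74 and 4.15 in pcYY2 (log2 fold change -0.76, edgeR adjusted p = 0.062). ZNF160, known as a repressor of the receptor gene TLR4, had 21.7, 24.5 and 18.8 CPM against 10.4, 16.4 and 14.4 (-0.63, edgeR adjusted p = 0.0745). ZNF615 had 50, 64 and 63 reads in pcCon and 30, 37 and 37 in pcYY2 (-0.98, edgeR adjusted p = 0.0661), although the deepest library was a pcYY2 sample. ZNF302 had 22.8, 23.2 and 23.3 CPM against 17.2, 17.5 and 19.9 (-0.33, edgeR adjusted p = 0.0667). ZNF837 went the other way, with 17, 24 and 16 reads in pcCon and 33, 54 and 33 in pcYY2 (0.82, edgeR adjusted p = 0.0773). The groups did not overlap in these 5 genes, but the genes were picked by small p, which favours groups that are apart.

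Levels were compared between genes as CPM per kilobase of merged exons. The median level of the tested members was 3.04, against 7.41 over all tested genes. ZNF146, a protein that consists almost wholly of fingers, stood first at 69.0, followed by ZNF121 at 28.1, ZNF428 at 17.2 and ZNF581 at 14.1. ZNF146 had 288, 299 and 283 CPM in pcCon and 290, 270 and 284 in pcYY2, so that its groups overlapped (log2 fold change -0.04, SE 0.0455, edgeR adjusted p = 0.575). ZNF428, ZNF787 and ZNF579, the other members among the highest by FPKM, had log2 fold changes of 0.06, 0.21 and 0.37 (edgeR adjusted p 0.823, 0.26 and 0.431). In ZNF579 the pcCon samples themselves ran from 13.0 to 27.0 CPM. Of the 5 members with the highest FPKM, ZNF121 alone passed the threshold.

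Along the chromosome, members whose starts lay within 1 Mb of the next were joined into 16 runs, numbered from the short arm. Of these, 6 runs held at least 9 tested members, and they differed in their medians. Run 15 (chr19:51571298-53580269, from ZNF175 to ZNF331) had 39 members, and in all 17 tested members the log2 fold change was under 0, with a median of -0.34 and values from -1.18 to -0.05. Its summed level was 380, 386 and 398 CPM in pcCon and 308, 293 and 303 CPM in pcYY2, a difference of -22.3% with the groups apart. In 11 of the 17 all pcYY2 samples lay below all pcCon samples (18.3% of all tested genes), and 2 of the 17, ZNF28 and ZNF525, were called lower (4.85% of all tested genes). The 6 other tested genes within the run had a median of -0.01, with 4 under 0.

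Run 16 (chr19:55476332-58481230, from ZNF628 to ZNF446), at the end of the long arm, was the largest with 59 members. Its 27 tested members had a median of 0.01, with 13 under 0 and a range from -0.55 to 0.62. Their summed level was 527, 492 and 507 CPM in pcCon and 475, 521 and 508 CPM in pcYY2, and these groups overlapped. Even so, ZNF304 and ZNF805 fell and ZNF581 rose within it. The members of run 16 were also richer in GC, with a median of 47.3% against 40.7% in run 15. The 13 tested members of run 16 in the highest GC quartile of the members had a median of 0.21, and the 14 others a median of -0.21, while run 15 held none in that quartile.

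Run 5 (chr19:19668796-24129961, from ZNF101 to ZNF254), near the centromere, was mostly silent. Of its 35 members 22 had a mean count under 10, and these 22 include 14 without any count. Its 10 tested members had a median of -0.29, with 9 under 0. In 6 of the 10 all pcYY2 samples lay below all pcCon samples (18.3% of all tested genes). ZNF431 and ZNF100, 2 of the 10, were called lower (4.85% of all tested genes). The summed level was 208, 244 and 268 CPM in pcCon and 231, 168 and 191 in pcYY2, which overlapped. In run 9 (chr19:36182060-37817300), only 3 of 26 members were tested, and with the count filter 11 of 12 were under 0 with a median of -0.39. Runs 2, 3 and 12 had medians of -0.09, -0.13 and -0.11 over 10, 9 and 10 tested members. In run 2 the summed level was 473, 489 and 477 CPM in pcCon and 431, 421 and 416 in pcYY2, of which ZNF121 made up a large part. The 27 other tested genes within run 2 had a median of 0.13 and a median GC content of 61.1%, against 43.4% for its members.

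The members differ from other genes in base composition, and the values moved with it. The GC content of the longest transcript had a median of 42.7% over the tested members and 47.8% over all tested genes. From the lowest to the highest GC quartile of the members, their medians were -0.32, -0.14, -0.23 and 0.01, and those of all other tested genes in the same spans were -0.06, -0.04, -0.02 and 0.05. Within each of the 4 spans the members lay lower than the other genes, by most in the lowest and by least in the highest. In the lowest GC quartile 22 of 24 members were under 0 (61.9% of the other genes there) and 6 were called lower (25%, with 6.39% of the other genes). In the highest 12 of 24 were under 0 (41.4% of the other genes) and none was called lower by edgeR, with 3 lower and 3 higher at an unadjusted p under 0.05. With offsets for GC content and length in the fit, the median of the members was -0.16 and 9 fell (9.57%, with 5.73% of all genes in that fit). The part of base composition in the remaining difference was not tested.

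The domain make-up of the proteins was not used in the choice of members. The 52 tested members with a KRAB-like stretch had a median of -0.25 with 88.5% under 0, and the 42 without had a median of -0.09 with 61.9% under 0. Their GC content differed as well, at 42.0% and 47.0%. Among members under the highest GC quartile the medians were -0.24 with the stretch (49 members) and -0.23 without it (21 members). The pattern misses some known KRAB proteins, such as ZNF304, so the members without a match are not all without a KRAB domain. In run 12 it matched only 2 of 25 members. The difference between members with and without a match was not tested. By number of fingers, the medians were 0.16 for 9 members with 1 to 5 fingers, -0.12 for 30 with 6 to 10, -0.30 for 37 with 11 to 15 and -0.23 for 18 with 16 to 36. The members with 1 to 5 fingers had a median GC content of 60.2%. Under the highest GC quartile, 22 members with 1 to 10 fingers had a median of -0.16 and 48 with 11 to 36 a median of -0.28. On other chromosomes, the 42 ZNF genes with a KRAB-like stretch had a median of -0.13 and the 123 without it -0.08.

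The tested members with the CGCCATNTT match had a median log2 fold change of -0.06 over 7 genes, and the 78 without it -0.21. Over all tested genes the medians were 0.07 for 790 with the match and 0.00 for 7866 without. The 3 neighbours with like windows had values of either sign. ZNF121 fell, as given above. ZNF561 had 52.3, 54.5 and 56.8 CPM in pcCon and 50.9, 50.5 and 50.6 in pcYY2 (-0.11, edgeR adjusted p = 0.254). ZNF562 had 50.1, 59.3 and 55.4 CPM in pcCon and 59.2, 62.4 and 63.9 in pcYY2 (0.17, edgeR adjusted p = 0.187). The differences between these neighbours were not tested. ZNF614, ZNF414 and ZNF507 had values of -0.11, -0.06 and 0.02 with overlapping groups (edgeR adjusted p 0.803, 0.862 and 0.898).

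ZNF264, also with the match, could not be compared, since its samples split within both groups. It had 777, 69 and 594 reads in the pcCon samples 1 to 3 and 81, 951 and 871 in the pcYY2 samples, so that the highest value was 11.3 times the lowest in pcCon and 8.99 times in pcYY2 after scaling. Such spread was rare among the members. In 13 of the 94 tested members the highest CPM of a group was more than 2 times its lowest, and in 6 more than 3 times, while the median ratio was 1.18 in pcCon and 1.24 in pcYY2. ZNF627, ZNF564, ZNF490 and ZNF766, noticed after their values were seen, had ratios from 3.43 to 3.74 in pcYY2. Without the 13 members the median log2 fold change of the others was -0.21. Of the tested members, 45 overlap another gene on the same strand and 46 on the other, and the 23 with no overlap had a median of -0.11.

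The partners through which KRAB proteins act were looked at from a list of 24 silencing factors, all of which were tested. CHD4, the remodelling subunit of the NuRD complex, was the only one called, with 602, 621 and 630 CPM in pcCon and 735, 786 and 753 in pcYY2 (log2 fold change 0.30, SE 0.0388, edgeR adjusted p = 0.00934). TRIM28, the common corepressor, had 519, 528 and 522 CPM in pcCon and 529, 567 and 539 in pcYY2 (0.06, edgeR adjusted p = 0.36). SETDB1 had 54.5, 59.4 and 58.2 CPM against 58.7, 61.1 and 65.7 (0.11, edgeR adjusted p = 0.319). The median of the 24 factors was -0.01. With edgeR 1 of 24 rose and none fell, where 4.52% of all tested genes were called higher and 4.85% lower, so that the count is near the background. At an unadjusted p under 0.05, DNMT3A and HDAC2 were also lower and DNMT1 and DNMT3B higher, all 4 named after their values were seen. At that cut 14.5% of all tested genes were lower and 14.4% higher, so the 24 factors do not exceed the background there either. YY1 had 170, 152 and 175 CPM in pcCon and 196, 165 and 198 in pcYY2 (0.17, edgeR adjusted p = 0.26), with overlapping groups.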

How the data were processed

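RNA-Seq of 6 HCT116 samples was analysed, 3 transfected with pcCon and 3 with pcYY2. According to the methods, reads were cleaned, mapped to GRCh38 with Tophat 2.1.0 and quantified with Cufflinks 2.1.1. The labels also name Bowtie2 and HTSeq without versions. The counts deposited by the authors are whole reads per gene without normalization, and whether the counting used the strand is not given in the sources used here. The deposited FPKM values, made by the authors, scale these counts to a gene length, which for the members was a median of 1.67 times the length of their merged exons. FPKM served only to filter genes. Every value column belonged to a sample of the series.

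Counts were tested with edgeR 4.0.16 (TMM, quasi-likelihood) in R 4.3.3 over the 12015 genes whose mean FPKM was 1 or more, with Benjamini-Hochberg adjustment over all of them and a threshold of 0.05. A log2 fold change is pcYY2 against pcCon, and SEs are from the F statistic. A floor of 3 counts corresponds to 0.101 to 0.198 CPM of the library total and covers counting error only. No library was a copy of another of its group, since every pair within a group differed beyond counting error. Pairs between the groups were not compared in this way. The test was tried on simulated data.

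The members and all lists were chosen with earlier results of these data known. Named were the members past the threshold, up to 3 nearest to it, the 5 with the highest FPKM, 5 under the filter with the smallest p, tested members with a promoter match, YY1, YY2, TRIM28, SETDB1 and silencing factors past the threshold. Lengths, GC content and proteins were taken from GENCODE 44 and promoters from RefSeq (GRCh38.p14). The alternatives were other filters, scalings and tools (DESeq2 1.42.0, limma 3.58.1 on log2(FPKM + 1)), GC and length offsets, the replicate number as a block and leaving out each sample.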

Additional observations from a re-analysis of the deposited data

How the results depend on the processing

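In all alternatives run, the median log2 fold change of the members was negative. It was -0.18 without a filter, -0.14 with limma on log2(FPKM + 1), -0.16 with offsets for GC content and length and -0.24 to -0.18 when a sample was left out. Lower members numbered 12 with DESeq2 (12.8%, with 6.04% of all genes), 3 at a mean FPKM of at least 0.1 (1.91%, with 2.19%) and 3 without a filter (1.53%, with 1.57%). The last 2 shares are no higher than the background. Without a filter 0 were higher, and 41 of 196 members were lower and 7 higher at an unadjusted p under 0.05. The share of all genes at that cut was not computed without a filter. In the main fit 32 of 94 members were lower and 4 higher at an unadjusted p, among 1740 lower and 1727 higher genes of 12015. Leaving out a sample gave 0 to 5 lower and 0 to 0 higher members, among 147 to 419 lower and 138 to 402 higher genes. Same-numbered samples correlated at -0.027, -0.032 and -0.018 in their deviations, so the numbers do not show a pairing. With the number as a replicate block, edgeR called 0 members lower and 0 higher, where 50 genes were called lower and 51 higher. At an unadjusted p under 0.05, 31 members were lower and 5 higher in the block fit. The share of all genes at this unadjusted cut was not computed for the block fit. Of 493 values of named genes, 385 kept direction and side of the threshold, 83 lost the call, 8 gained it and 17 changed sign, all of the latter in genes that were not called. With GC and length offsets these were ZNF146 at 0.0021 and ZNF428 at -0.0187. When a sample was left out the sign varied for ZNF428 (-0.0269 to 0.186), ZNF614 (-0.416 to 0.0539), ZNF414 (-0.226 to 0.0717), ZNF507 (-0.0321 to 0.0868) and ZNF264 (-0.554 to 0.491). ZNF264 was also at -0.0039 with upper quartile scaling and at -0.0013 with library totals alone. The cause was not tested. ZNF28 was called in 12 and ZNF121 and ZNF431 in 11 of 16 alternatives, ZNF100 and ZNF525 in 4. Members with few reads limit what can be seen, and a change in the 51 without a count could not be detected.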

Other observations

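Chromosome 19 also holds zinc finger genes whose names fall outside the rule, such as the ZFP, ZSCAN, ZIM and ZIK genes, which were looked up after the data were seen. Of 13 such genes, 4 had a mean count of at least 10 and 2 were tested, with 1 of the 2 under 0. In the fit over genes with a mean count of at least 10, 1 of the 4 was under 0 and their median was 0.24, with ZFP14 at -0.22, ZFP30 at 0.38, ZSCAN5A at 0.31 and ZSCAN22 at 0.18 (edgeR adjusted p from 0.224 to 0.608). ZIM2, ZIM3, ZSCAN1 and ZSCAN4 had no count in any sample. ZSCAN22, a SCAN domain protein, had 205, 211 and 169 reads in the pcCon samples 1 to 3 and 179, 380 and 240 in the pcYY2 samples.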
